A study of Mus musculus with 14 samples.

Results

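RNA of the jejunum was measured on 14 Affymetrix arrays, each from another mouse, and 12 of these arrays are compared here by how much Cd3e they carried. Cd3e encodes the epsilon chain of the CD3 complex, the signalling part of the T cell receptor, and serves as a marker of T cells. The arrays were chosen by this measured value and by no treatment: within each genotype the 7 arrays were ranked by the log2 intensity of the 1 Cd3e probe set, the 3 highest formed the Cd3e-high group (6 arrays in all), the 3 lowest formed the Cd3e-low group (6 arrays), and the middle array of each genotype (2 arrays) was left out. The genotypes were LRH-1 WT (7 mice) and LRH-1 K289R (7 mice), in which the nuclear receptor LRH-1, encoded by Nr5a2, carries an arginine in place of a lysine to which the small protein SUMO can be attached. All mice were 19 to 21 weeks old, ate freely until they were killed at 7 am, and gave frozen jejunum that was used as a whole tissue. The labels name no promoter, Cre, strain, sex, litter or scan day, and they call the 14 samples biological replicates.

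The small intestine holds lymphocytes in several places. Intraepithelial lymphocytes lie between the enterocytes, are mostly CD8 T cells armed with granzymes, and are held there by the integrin that Itgae helps to form. B cells, follicular helper T cells and naive T cells gather in Peyer's patches and smaller follicles, and plasma cells lie in the lamina propria. Enterocytes respond to interferons, which lymphocytes and other cells release, with genes of antigen presentation and of antiviral defence.

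Among WT arrays, log2 Cd3e was 9.96, 9.42 and 9.41 in the high group (WT 3, WT 2 and WT 5), 9.25 on the middle array (WT 4) and 8.56, 8.52 and 8.29 in the low group (WT 1, WT 7 and WT 6). Among K289R arrays it was 10.03, 9.92 and 9.69 in the high group (K289R 5, K289R 6 and K289R 3), 9.60 on the middle array (K289R 7) and 9.30, 9.25 and 8.40 in the low group (K289R 4, K289R 1 and K289R 2). The step from the lowest high array to the middle one was therefore small in both genotypes, and K289R 4 and K289R 1 of the low group carried as much Cd3e as the middle WT array. The mean difference was 1.14 on the log2 scale in WT (2.21-fold) and 0.89 in K289R (1.86-fold), and 1.02 over both (2.02-fold). These values made the groups and carry no test.

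In a fit over 18009 genes with genotype as covariate, 56 genes differed between the Cd3e-high and Cd3e-low arrays at an adjusted p under 0.05 in limma, of which 48 rose with Cd3e and 8 fell. They were 0.311% of the genes tested, with 0.267% rising and 0.0444% falling, and 1436 genes (7.97%) had an unadjusted p under 0.05. For 124 genes (0.689%) the 6 high and the 6 low arrays did not overlap, and 30 of the 56 were among them. The median difference over all genes was -0.01 on the log2 scale, with a median standard error of 0.071. A p here tests whether a gene went with the Cd3e ranking, not a condition of the study, and genes of T cells measure the same cells as Cd3e, so for the lists of T cell genes values are given with no p, and how many of them were among the 56 is a description. In RNA from a whole piece, more cells of a type and more RNA per cell cannot be told apart.

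The count of 56 rested on particular arrays. Fabp6, an ileal bile acid binding protein that the jejunum normally carries little of, exceeded log2 8 on 4 arrays: WT 1 (12.52), K289R 2 (10.71), K289R 7 (9.91) and WT 6 (9.18). Of these, 3 lay in the low group and 1 was a middle array, and none of the 6 high arrays had such a value. Without the 3 low arrays, the remaining 9 arrays gave 0 genes past the adjusted threshold in limma (859 with an unadjusted p under 0.05, lowest adjusted p 0.131). All 56 genes kept their direction there with an unadjusted p under 0.05, and the median gene had 0.86 of its former difference. The 56 were chosen on the 12 arrays that include these 9, which favours a kept direction and a low p. The low arrays left were WT 7, K289R 1 and K289R 4. Leaving out single arrays gave 2 genes without WT 6, 3 without WT 3, 5 without K289R 3, 8 without K289R 6, 9 without WT 1, 28 without WT 2, 30 without K289R 2, 32 without K289R 1 and 34 without WT 7, and between 47 and 67 without any other array. With Fabp6 as covariate over all 12 arrays, an alternative added after seeing the data, limma also gave 0 genes (915 with an unadjusted p under 0.05, lowest adjusted p 0.0877). All 56 kept their direction at a median of 0.91 of their difference, on the same arrays that chose them. For many of the genes named the difference without those 3 arrays is given as well.

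Of the 56 genes, those with the largest differences were Gzma, Gzmb and Ccl5, genes of cytotoxic and intraepithelial lymphocytes. Of the 21 tested genes of this list, 11 were among the 56, all 21 were higher and the median difference was 0.49, against 46.2% of all genes that were higher. Gzma, a granzyme of cytotoxic granules, had log2 intensities of 8.85 to 10.36 (median 9.78) on the high arrays and 7.25 to 9.17 (median 8.0) on the low ones, a difference of 1.48 (SE 0.27, 2.79-fold; 1.04 without the arrays with Fabp6 signal). Gzmb, a second granzyme, ran from 9.17 to 10.29 (median 10.07) and from 7.59 to 9.42 (median 8.40), a difference of 1.45 (SE 0.27; 0.97 without those arrays). For both granzymes the groups overlapped, because K289R 1 and K289R 4 of the low group lay above WT 5 of the high group.

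Ccl5, a chemokine that CD8 T cells store, ranged from 11.27 to 12.06 (median 11.95) on the high arrays and from 9.61 to 11.30 (median 10.34) on the low ones, a difference of 1.38 (SE 0.24; 0.89 without the arrays with Fabp6 signal). Cd8a, the CD8 alpha chain that most intraepithelial lymphocytes carry, lay between 8.41 and 9.28 on the high arrays (median 9.02) and between 7.50 and 8.38 on the low ones (median 7.95), a difference of 0.98 (SE 0.16; 0.72). The Cd8a values did not overlap between the groups, although the highest low array and the lowest high array were nearly equal. Cd8b1, the CD8 beta chain of conventional CD8 T cells, differed by 0.26 (SE 0.09), with 7.86 to 8.32 on the high and 7.58 to 8.08 on the low arrays, which overlapped. Itgae (0.84), the alpha chain of the integrin that binds epithelial cadherin, and Cd7 (1.10), a surface protein of T and natural killer cells, were higher as well (0.62 and 0.79 without the arrays with Fabp6 signal). Further members among the 56 were Nkg7 (0.81; 0.63 without those arrays), Gimap4 (0.59), Il2rb (0.52), Ctsw (0.49) and Cd244a (0.45), known from cytotoxic and natural killer cells or from lymphocytes in general. Prf1 (perforin) differed by 0.04 and Ifng (interferon gamma) by 0.02, and neither was among the 56. Prf1 was dim, at 7.26 to 7.62 on the high and 7.24 to 7.80 on the low arrays, against a probe set median of 7.42.

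Within the T cell receptor complex the genes moved by unequal amounts. Cd3g, the gamma chain of CD3, was 9.29 to 10.51 (median 9.95) on the high and 8.0 to 9.32 (median 8.39) on the low arrays, a difference of 1.29 (SE 0.19; 0.95 without the arrays with Fabp6 signal). Cd3d, the delta chain, differed by 0.27 (SE 0.10), with 7.34 to 7.72 against 6.85 to 7.52. Cd96, an adhesion receptor of T and natural killer cells, lay at 8.31 to 9.11 (median 8.77) on the high arrays and at 7.40 to 8.24 (median 7.78) on the low ones, without overlap, a difference of 0.92 (SE 0.10; 0.84). Of the 16 tested genes of this list, 2 (Cd3g and Cd96) were among the 56, 15 were higher and the median was 0.26. The others were Trat1 (0.48), Lat (0.37), Lcp2 (0.36), Cd28 (0.29), Themis (0.28), Zap70 (0.25), Cd27 (0.21), Cd6 (0.21), Cd5 (0.19), Cd2 (0.16), Skap1 (0.09), Ptprcap (0.09) and Sit1 (-0.15), which are adaptors, kinases and co-receptors of T cell signalling. Trav9d-3, a variable segment of the T cell receptor alpha chain, differed by 1.03 in its brightest probe set, and its other 4 probe sets gave 0.80, 0.16, -0.01 and -0.05, so its place among the 56 depends on the probe set. Probes for near-identical variable segments can bind each other's targets.

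**Figure D1:**
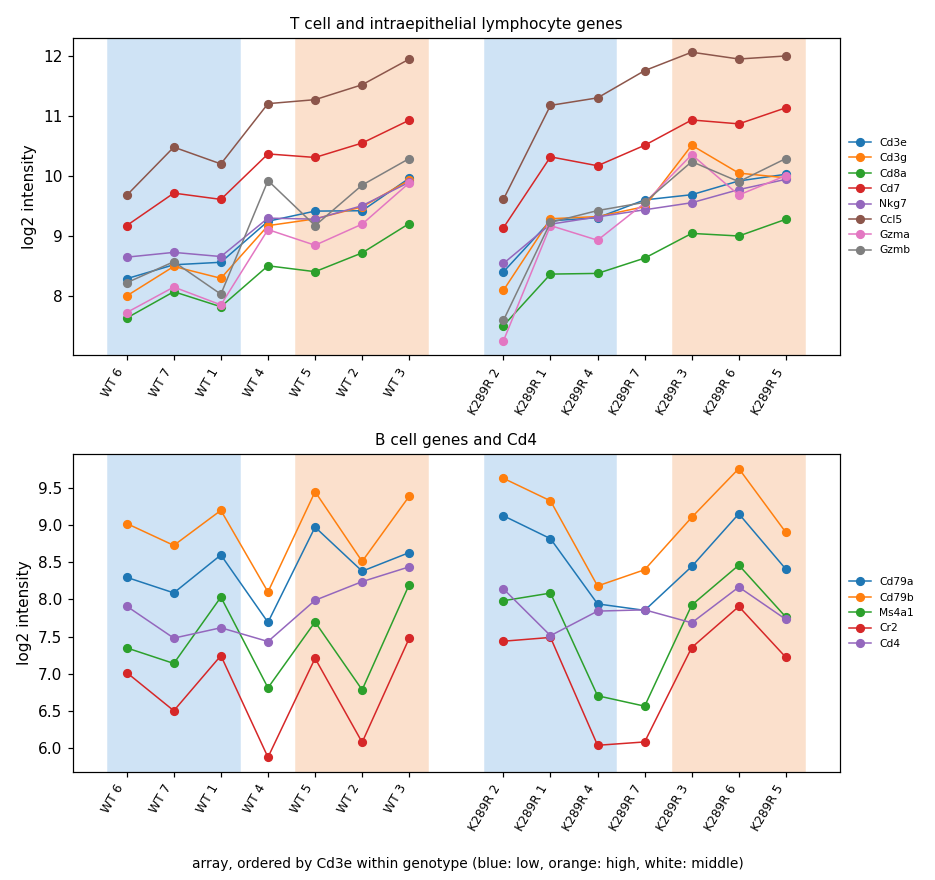
Log2 intensity of 8 T cell and intraepithelial lymphocyte genes (top) and of 4 B cell genes with Cd4 (bottom) on each of the 14 arrays, ordered by Cd3e within genotype. Blue shading marks low, orange high and white the middle arrays. The cytotoxic genes climb along the Cd3e order in both genotypes, whereas the B cell genes rise and fall between neighbouring arrays.

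Among genes of helper, regulatory and naive T cells the differences were smaller and of both signs. Of 16 tested genes, 1 was among the 56 (Ikzf2, a transcription factor of regulatory and innate-like T cells, 0.38), 10 were higher and the median difference was 0.03. The list was dim, with a mean of 7.60 to 7.76 on the high and 7.55 to 7.74 on the low arrays, near the probe set median of 7.42. The cytotoxic list was brighter (8.38 to 8.78 on the high arrays), and the T cell receptor list was about as dim (7.54 to 7.94). Small differences here therefore do not show that these cells did not follow Cd3e. Cd4 was 7.69 to 8.44 (median 8.08) on the high and 7.48 to 8.14 (median 7.73) on the low arrays, with a difference of 0.55 in WT and 0.03 in K289R. Foxp3, the factor of regulatory T cells, differed by 0.04 (SE 0.08) and Il7r, a receptor of naive and memory T cells, by 0.41 (SE 0.20). Over the 14 arrays, with genotype means removed, the genes most like Cd3e were Nkg7 (r = 0.99), Zbp1 (0.98), Cd7 (0.98), Cd8a (0.97) and Ccl5 (0.97). These are descriptions over 14 arrays that share the tissue and the scaling.

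B cell genes had correlations with Cd3e over the same 14 arrays of 0.09 (Ms4a1), 0.04 (Cr2), -0.02 (Cd79a) and -0.05 (Cd79b), and the arrays are therefore named here by Cd3e and not as rich or poor in lymphocytes. Of 23 tested genes of B cells and follicles, 0 passed in limma (2 with an unadjusted p under 0.05), 21 were higher and the median was 0.17. This median moved with single arrays: it was 0.27 without the arrays with Fabp6 signal, above the 0.20 of the T cell receptor list there, and 0.03, 0.06 and 0.10 without K289R 4, K289R 6 and WT 5. It was 0.02 with Cd3e as a continuous value over 14 arrays and -0.04 with a replicate block. Cr2, the complement receptor of follicular B cells and follicular dendritic cells, had log2 values of 6.08 to 7.91 (median 7.29) on the high and 6.04 to 7.49 (median 7.13) on the low arrays, a difference of 0.25 (SE 0.28, adjusted p = 0.923; 0.61 without the arrays with Fabp6 signal). Its lowest values were on WT 4 (5.88), K289R 4 (6.04), WT 2 (6.08) and K289R 7 (6.08), which belong to the middle, low, high and middle arrays. Ms4a1, which encodes CD20, differed by 0.26 (SE 0.27, adjusted p = 0.916; 0.57), Cd79a by 0.19 (SE 0.19) and Cd79b by 0.17 (SE 0.23), both chains of the B cell receptor complex. The germinal centre list had a median of 0.06 over 11 genes and the plasma cell list 0.22 over 11 genes, with 0 called in either by limma (3 and 6 with an unadjusted p under 0.05). Jchain, which joins secreted IgA, differed by 0.23 (SE 0.13, adjusted p = 0.726). Macrophage and dendritic cell genes had 0 of 26 called (3 with an unadjusted p under 0.05) and a median of 0.10, and Itgax, a marker of dendritic cells, differed by 0.37 (SE 0.17, adjusted p = 0.601). The B cell list mean ran from 7.65 to 8.52 on the high and from 7.58 to 8.31 on the low arrays.

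Genes of MHC class II, which present antigen to CD4 T cells and are made by antigen-presenting cells and by interferon-exposed enterocytes, were among the strongest rises outside the T cell lists. H2-Aa, the alpha chain of the class II molecule I-A, had log2 values of 12.20 to 12.64 (median 12.44) on the high arrays and 10.65 to 12.46 (median 11.36) on the low ones. It rose by 1.00 (SE 0.17, 2.00-fold, adjusted p = 0.0330 in limma; 0.97 without the arrays with Fabp6 signal). H2-Ab1, the beta chain, lay at 12.94 to 13.36 (median 13.14) and at 11.69 to 13.26 (median 12.17), and rose by 0.88 (SE 0.16, adjusted p = 0.0392; 0.76). The overlap of both genes came from K289R 4, a low array whose H2-Aa (12.46) and H2-Ab1 (13.26) lay within the range of the high arrays.

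Of the 9 class II genes tested, these 2 passed the threshold, 8 were higher and the median was 0.68, the highest of the 35 lists, with 0.89 in WT and 0.34 in K289R. The difference between genotypes did not pass the threshold for any gene. H2-DMa (0.93, adjusted p = 0.109), H2-DMb1 (0.78, adjusted p = 0.0876) and H2-Eb1 (0.68, adjusted p = 0.0940) did not pass it (0.72, 0.62 and 0.60 without the arrays with Fabp6 signal). H2-DM loads peptides onto class II molecules. Ciita, the master regulator of class II genes, differed by 0.46, H2-Eb2 by 0.20, H2-DMb2 by 0.14 and H2-Oa by -0.01.

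Genes of MHC class I presentation and of the interferon gamma response lay higher on the Cd3e-high arrays throughout the list. All 26 tested genes were higher, in WT and in K289R alike, 20 had an unadjusted p under 0.05 and 2 passed the adjusted threshold, with a median of 0.35 (0.26 without the arrays with Fabp6 signal). Ido1, an interferon-induced enzyme that breaks down tryptophan, had log2 values of 10.53 to 11.62 (median 11.15) on the high and 9.51 to 11.10 (median 10.04) on the low arrays, and rose by 0.91 (SE 0.17, adjusted p = 0.0392; 0.57 without those arrays). Psmb9, a subunit of the immunoproteasome, lay at 9.58 to 10.24 and at 8.87 to 9.73, and rose by 0.66 (SE 0.12, adjusted p = 0.0389; 0.48). Of the low arrays, K289R 1 and K289R 4 reached into the range of the high arrays for Ido1, and K289R 4 alone for Psmb9.

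Other members had larger differences with a wider spread and did not pass. Igtp, a GTPase induced by interferon gamma, had 8.80 to 10.69 (median 10.35) on the high and 7.89 to 10.07 (median 8.19) on the low arrays, a difference of 1.49 (SE 0.32, adjusted p = 0.0808; 1.09 without the arrays with Fabp6 signal). Irgm2, a related GTPase, differed by 1.10 (SE 0.22, adjusted p = 0.0636; 0.81). The peptide transporter Tap1 differed by 0.66, Cxcl9 by 0.58, Psmb8 by 0.52, the class I transactivator Nlrc5 by 0.47, Cd274 (the ligand PD-L1) by 0.40, Irf1 by 0.30, H2-K1 by 0.21 and B2m, the shared light chain of class I molecules, by 0.06. H2-Q4, a class I gene outside the list that was picked once its values were known, rose by 0.51 (SE 0.08, adjusted p = 0.0194). Its second, dimmer probe set gave 0.11, and class I genes resemble each other closely.

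Type I interferon response genes showed a like pattern. Of 24 tested genes, 3 passed the threshold, 17 had an unadjusted p under 0.05, 23 were higher and the median was 0.30 (0.18 in WT and 0.37 in K289R; 0.26 without the arrays with Fabp6 signal). Zbp1, a sensor of Z-form nucleic acids, had log2 values of 9.63 to 10.57 (median 10.31) on the high and 8.60 to 9.88 (median 8.83) on the low arrays, and rose by 1.15 (SE 0.18, 2.22-fold, adjusted p = 0.0194; 0.90 without those arrays). Usp18, which removes the ubiquitin-like protein ISG15, lay at 9.40 to 10.45 (median 9.89) and at 8.35 to 9.68 (median 8.78), and rose by 0.97 (SE 0.17, adjusted p = 0.0330; 0.62). Isg15 itself lay at 6.85 to 7.58 (median 7.21) and at 6.63 to 6.91 (median 6.71), and rose by 0.48 (SE 0.08, adjusted p = 0.0194; 0.45). In each of the 3 genes all 6 high arrays lay above the mean of the low arrays of their own genotype, although the groups overlapped.

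Ifit1, an RNA-binding antiviral protein, differed by 0.72 (SE 0.14, adjusted p = 0.0624; 0.40 without the arrays with Fabp6 signal) and Xaf1 by 0.31 (adjusted p = 0.0712; 0.21). Mx1 was the 1 member that was lower (-0.04). Outside the list, Herc6, the ligase that attaches ISG15 to proteins in mice, rose by 0.87 (SE 0.15, adjusted p = 0.0352; 0.60). Ddx60 (0.80), Slfn2 (0.75), Sp110 (0.58), Sp100 (0.57) and Oas1b (0.47), which are also known as interferon-induced and were picked once their values were known, passed the threshold too. Without the arrays with Fabp6 signal these 5 differed by 0.57, 0.76, 0.58, 0.41 and 0.39. Sp100 and Sp110 have several probe sets, whose differences ran from 0.15 to 0.57 and from 0.12 to 0.58, all upward.

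**Figure D2:**
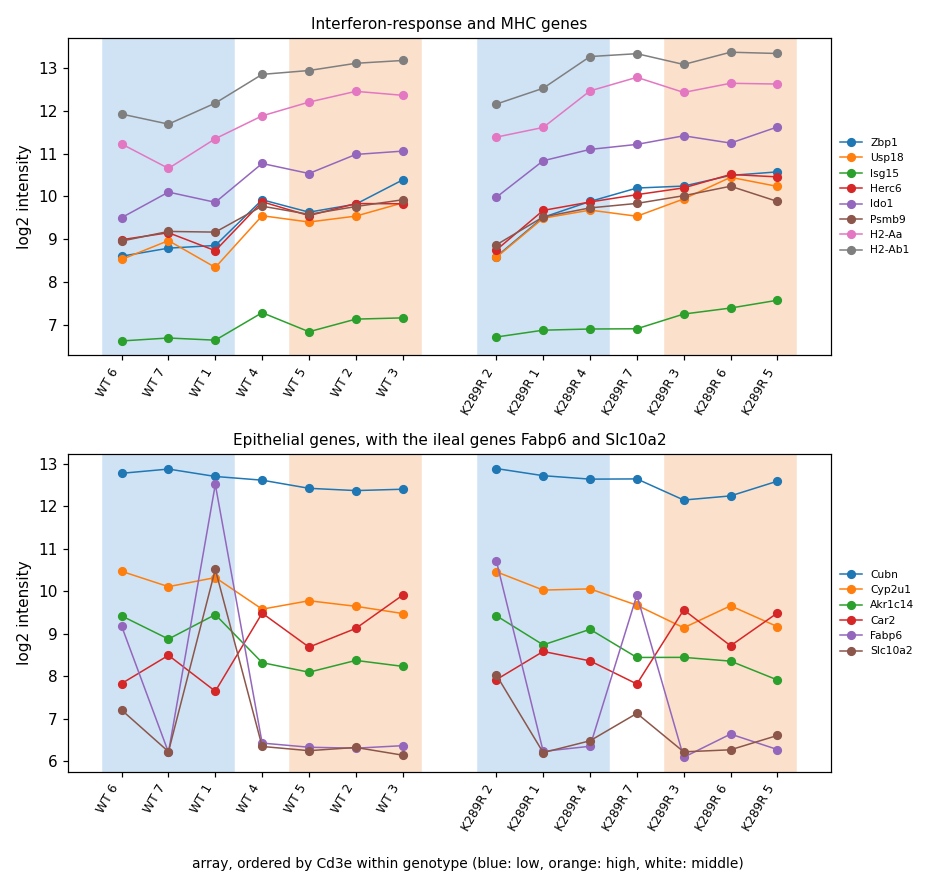
Log2 intensity of 8 interferon-response and MHC genes (top) and of 4 epithelial genes with the ileal genes Fabp6 and Slc10a2 (bottom) on each array, ordered by Cd3e within genotype (blue low, orange high, white middle). The genes on top are lowest on WT 6, WT 7, WT 1 and K289R 2, and Fabp6 stands out on WT 1, WT 6, K289R 2 and K289R 7.

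Promoters of the genes that rose were read from RefSeq (GRCm38.p6), since many of them are known interferon targets and such genes often carry an interferon-stimulated response element. The motif GAAANNGAAA was searched on both strands in the 250 bases before each gene's start, so a match may be written as its reverse complement TTTCNNTTTC, and matches that overlapped within a promoter were counted separately. Of the 48 genes that rose, 31 had a promoter in the table, and 6 of these 31 (19.4%) held the motif, against 437 of 13949 tested genes with a promoter (3.13%) and 936 of 27025 in the whole table (3.46%). Among the type I interferon list it was 9 of 17 (52.9%) and in the MHC class I and interferon gamma list 8 of 20 (40.0%). Of the 6 promoters of fallen genes 1 held it (16.7%), a share near that of the risen genes but resting on 1 gene. The match in each of the 6 risen genes is given in capitals with up to 15 bases on either side, in the gene's own direction; it is a match of letters and says nothing of what binds there.
Isg15: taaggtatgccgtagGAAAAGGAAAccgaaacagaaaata
Ddx60: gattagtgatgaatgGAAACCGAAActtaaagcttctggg
Gzma: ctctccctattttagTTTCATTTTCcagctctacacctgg
Stat4: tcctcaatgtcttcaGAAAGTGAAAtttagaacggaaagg
Gpr18: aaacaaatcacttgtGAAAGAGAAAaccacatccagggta
Tnfsf13b: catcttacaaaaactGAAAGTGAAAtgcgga

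These windows lie at chr4:156200872-156200911 on the minus strand (Isg15, 78 bases before the start), chr8:61928019-61928058 on the plus strand (Ddx60, 53 bases), chr13:113101054-113101093 on the minus strand (Gzma, 97 bases), chr1:52008128-52008167 on the plus strand (Stat4, 97 bases), chr14:121915905-121915944 on the minus strand (Gpr18, 41 bases) and chr8:10006602-10006632 on the plus strand (Tnfsf13b, 16 bases). The promoter of Isg15 held 3 matches and that of Ddx60 held 2, of which the one given here is the first found.

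Among chemokines, homing receptors and lymphoid stroma, 3 of 24 tested genes passed the threshold, all upward, and the median was 0.11. Selplg, the selectin ligand by which leukocytes roll on vessel walls, had log2 values of 8.98 to 9.38 on the high and 8.32 to 8.93 on the low arrays. The groups did not overlap, and the difference was 0.45 (SE 0.09). T cells are among the leukocytes, so Selplg may in part measure the same cells as Cd3e and is given with no p. Tnfsf13b, which encodes the B cell survival factor BAFF, lay at 9.36 to 9.72 and at 9.0 to 9.30, also without overlap, and rose by 0.36 (SE 0.07, adjusted p = 0.0411; 0.28 without the arrays with Fabp6 signal). Gpr18, a receptor known from intraepithelial lymphocytes, was the third and is given with no p, as a gene of these cells (0.42, SE 0.08). Itgb2, a leukocyte integrin chain given with no p for the same reason as Selplg, did not pass (0.34). Further rises were in genes known from lymphocytes, some of them, such as Prkch, Fyn and Skap2, also from other cells. Picked once their values were known, these were Rgs1 (0.62), Stat4 (0.60), Prkch (0.54), Gimap7 (0.45), Fyn (0.45), Cd48 (0.39), Rasgrp1 (0.38), Arhgap25 (0.33) and Skap2 (0.30).

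The epithelial factors that sustain intraepithelial lymphocytes did not pass the threshold. Of 14 tested genes 0 were called in limma (1 with an unadjusted p under 0.05), and the median was 0.05. Il15, the cytokine on which these cells depend, had log2 values of 9.44 to 10.37 (median 9.71) on the high and 9.60 to 9.97 (median 9.68) on the low arrays, a difference of 0.04 (SE 0.12, adjusted p = 0.985). Il7 differed by 0.23 (SE 0.06, adjusted p = 0.195) and Il15ra, which presents interleukin 15, by 0.14 (SE 0.07, adjusted p = 0.698). Btnl2 differed by 0.15 (adjusted p = 0.744) and Ahr by 0.09 (adjusted p = 0.860).

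Some rises were in genes with no known tie to lymphocytes. Car2, a carbonic anhydrase of surface epithelium, had log2 values of 8.68 to 9.91 (median 9.31) on the high and 7.65 to 8.58 (median 8.14) on the low arrays, without overlap. It rose by 1.11 (SE 0.22, 2.16-fold, adjusted p = 0.0486; 0.77 without the arrays with Fabp6 signal). On K289R 7, a middle array, Car2 was 7.82, as low as on the low arrays. Akr1b10, an aldo-keto reductase picked once its values were known, lay at 8.15 to 8.44 (median 8.27) and at 7.59 to 8.07 (median 7.82), without overlap, and it rose by 0.47 (SE 0.06, adjusted p = 0.00799; 0.40). Nudt5, an ADP-ribose hydrolase also picked in this way, lay at 9.96 to 10.60 and at 9.26 to 10.05 and rose by 0.73 (SE 0.11, adjusted p = 0.0194; 0.57). Tlcd2 (0.64, adjusted p = 0.0478) and the mitochondrial carrier Slc25a43 (0.30, adjusted p = 0.0496) completed those picked in this way. Akr1b10 and Cd96 were the 2 genes that stayed past the threshold in each of the 12 fits that left out 1 array.

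The 8 genes that fell were lower on all 6 high arrays than on any low array. Akr1c14, an aldo-keto reductase that acts on steroids, had log2 values of 7.91 to 8.44 (median 8.29) on the high and 8.74 to 9.45 (median 9.26) on the low arrays. It fell by 0.93 (SE 0.13, 0.52-fold, adjusted p = 0.0177 in limma), and the difference was -0.67 without the arrays with Fabp6 signal. Cyp2u1, a cytochrome P450 that hydroxylates fatty acids, lay at 9.14 to 9.78 and at 10.03 to 10.47 and fell by 0.76 (SE 0.11, adjusted p = 0.0177), with -0.63 without those arrays. Akr1c14 was highest on WT 1, K289R 2 and WT 6, the same low arrays that carried Fabp6 signal, and lower on the other low arrays (8.74 to 9.10), which still lay above the high group.

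Cubn, the receptor of the distal small intestine that takes up the intrinsic factor and vitamin B12 complex, lay at 12.15 to 12.60 (median 12.39) on the high and at 12.64 to 12.89 (median 12.75) on the low arrays. It fell by 0.40 (SE 0.07, adjusted p = 0.0389), and the difference was the same without the arrays with Fabp6 signal (-0.40). Klk1, a kallikrein protease, lay at 10.84 to 11.14 and at 11.24 to 11.79 and fell by 0.45 (SE 0.08, adjusted p = 0.0389; -0.33 without those arrays). Naip5, an innate sensor of flagellin, fell by 0.38 (SE 0.07, adjusted p = 0.0401), Dusp12, a phosphatase, by 0.35 (SE 0.07, adjusted p = 0.0478) and Gclc, the catalytic subunit of the enzyme that starts glutathione synthesis, by 0.34 (SE 0.06, adjusted p = 0.0441). Olfr165, named as an olfactory receptor, lay at 5.58 to 6.75 and at 6.84 to 7.55 and fell by 0.93 (SE 0.15, adjusted p = 0.0195). Its values are near the limit of 6.25 set on dim genes, and K289R 3 (5.58) stood apart from the other high arrays.

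Among genes of the distal small intestine, Fabp6 and Slc10a2 separated single arrays more than groups, whereas Cubn, as given above, did not overlap between the groups. Of 6 tested genes 1 fell (Cubn), and 4 had an unadjusted p under 0.05 in limma, against 7.97% of all genes. All 6 were lower on the high arrays, among them Slc51a (-0.44). The median was -0.65, which became -0.09 without the 3 low arrays with Fabp6 signal. Fabp6 had log2 values of 6.09 to 6.63 on the high arrays, and of 6.2 to 12.52 on the low ones, a difference of -2.20 (SE 0.91, adjusted p = 0.540). Slc10a2, the ileal bile acid importer, was 10.52 on WT 1, 8.03 on K289R 2 and 7.20 on WT 6, and at most 6.60 on the other 9 arrays of the comparison, a difference of -1.14 (SE 0.56, adjusted p = 0.666). Without those 3 arrays the differences were 0.08 for Fabp6 and 0.02 for Slc10a2. The proximal list had a median of 0.06 over 8 genes, and 0 were called in limma (1 with an unadjusted p under 0.05).

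**Figure D3:**
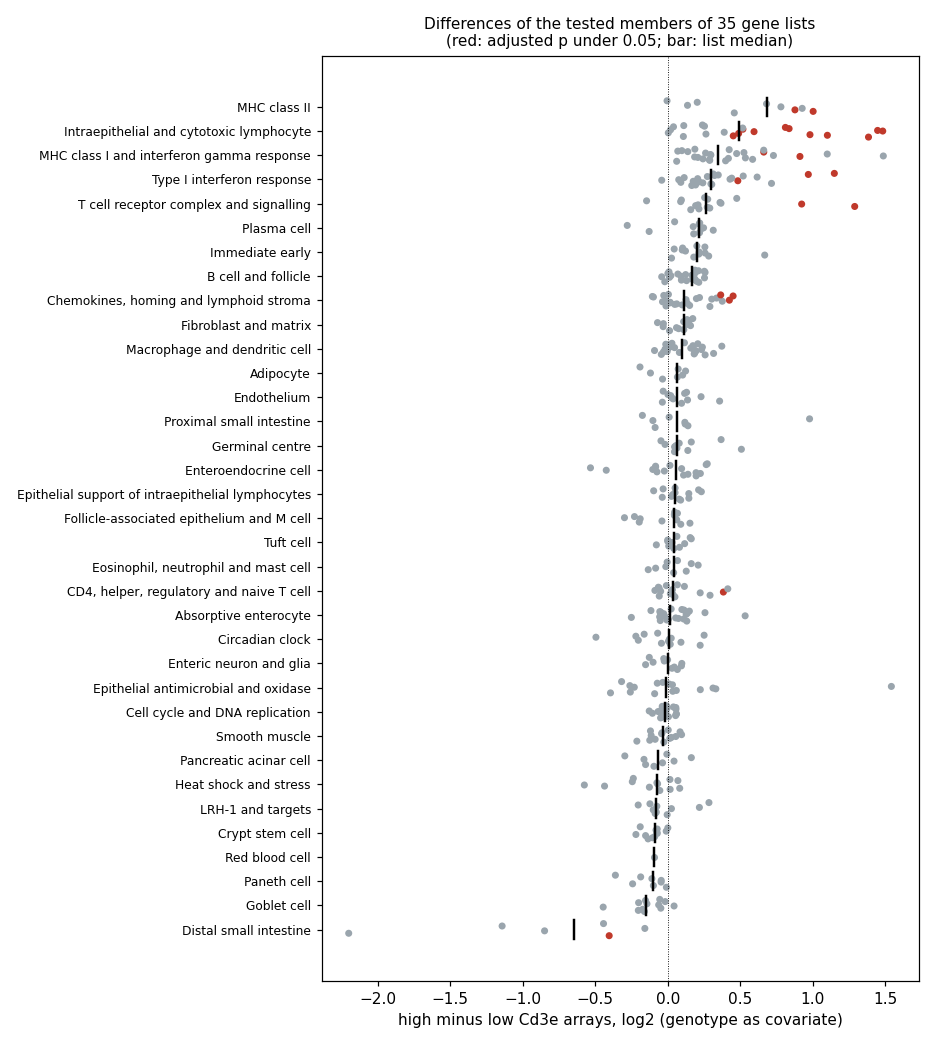
Difference between Cd3e-high and Cd3e-low arrays (log2, genotype as covariate) for each tested gene of 35 lists, ordered by list median. Red points passed an adjusted p of 0.05 and black bars are the list medians. The MHC class II median lies at 0.68, the cytotoxic lymphocyte median at 0.49 and the interferon medians at 0.35 (gamma) and 0.30 (type I), while most other medians lie close to 0.

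The other cell types of the wall differed little on average. Absorptive enterocyte genes had 0 of 24 called in limma (4 with an unadjusted p under 0.05) and a median of 0.01. Sis, which encodes sucrase-isomaltase, differed by -0.05 (SE 0.05) and Fabp2 by -0.03 (SE 0.05), and Fabp1 had the largest difference of the list (0.53, SE 0.20, adjusted p = 0.462; 0.17 without the arrays with Fabp6 signal). Goblet cell genes had 11 of 12 members lower, with 0 called (5 with an unadjusted p under 0.05) and a median of -0.15 (-0.09 without those arrays). Guca2a, which encodes guanylin, was 11.90 to 12.68 (median 12.48) on the high and 12.74 to 12.89 (median 12.87) on the low arrays, without overlap, a difference of -0.45 (SE 0.10, adjusted p = 0.116). Paneth cell genes were lower in 8 of 8 (median -0.10, with 0 called and 1 with an unadjusted p under 0.05) and crypt stem cell genes in 12 of 12 (median -0.09, with 0 called and 1 with an unadjusted p under 0.05). The Paneth median was -0.01 without the arrays with Fabp6 signal, and the stem cell median was -0.08. By genotype the stem cell median was 0.02 in WT and -0.22 in K289R, where the list mean was lowest on the high array K289R 5 (9.38, against 9.70 to 9.93 on the other 5 K289R arrays compared).

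Smooth muscle, cell cycle, enteric neuron, endothelial, fibroblast, adipocyte, tuft and enteroendocrine lists had 0 genes called in limma and medians from -0.03 to 0.11. Of these, the enteroendocrine list had 6 of 16 genes with an unadjusted p under 0.05 in limma, against 7.97% of all genes, the neuron list 1 and the others 0. The enteroendocrine members went both ways, 9 higher and 7 lower. They ran from -0.53 (Pyy) and -0.42 (Nts) to 0.26 (Tac1) and 0.27 (Tph1). The smooth muscle list mean ran from 10.17 to 10.67 on the high and from 10.19 to 10.56 on the low arrays, and the groups overlapped. Pancreatic acinar genes had a median of -0.07 over 8 genes. Among LRH-1 and its targets, 0 of 11 genes were called (3 with an unadjusted p under 0.05), and Nr5a2 itself was 9.83 to 10.39 on the high and 10.22 to 10.60 on the low arrays, a difference of -0.20 (SE 0.09, adjusted p = 0.561).

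WT and K289R mice are separate animals, so the differences in each genotype come from separate arrays. The p-values do not: both genotypes were read from the same fit, which shares a gene's spread between them. A gene with a small spread therefore tends to have a low p in both, which raises the shares with a low p given below. Low arrays with Fabp6 signal were also present in both genotypes. Within WT 0 genes (0%) passed in limma (887 with an unadjusted p under 0.05, lowest adjusted p 0.282), and within K289R 0 genes (0%) passed (1350, lowest adjusted p 0.168), with 3 arrays against 3. The difference between the genotypes passed for 0 genes (0%; 669 with an unadjusted p under 0.05, lowest adjusted p 0.998). Of the 33 genes with an unadjusted p under 0.001 in WT, 32 had the same direction in K289R and 24 (72.7%) also an unadjusted p under 0.05 there, a limit that 7.50% of all genes passed. Leaving out the T cell lists, these were 25 and 18 of 26. Of the 58 genes with an unadjusted p under 0.001 in K289R, 50 had the same direction in WT and 30 (51.7%) an unadjusted p under 0.05 there, against 4.93% of all genes, and outside the T cell lists these were 43 and 23 of 51. The T cell lists do not hold all T cell genes (Trav9d-3, Rgs1 and Gimap7 lie outside them). The counts outside these lists can therefore not be taken as free of genes that measure the same cells as Cd3e. Over all genes the direction was shared by 53.6%. Gzma differed by 1.40 in WT and 1.56 in K289R, Zbp1 by 1.19 and 1.10, Usp18 by 0.98 and 0.96, H2-Aa by 1.26 and 0.74, and Akr1c14 by -1.02 and -0.85.

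**Figure D4:**
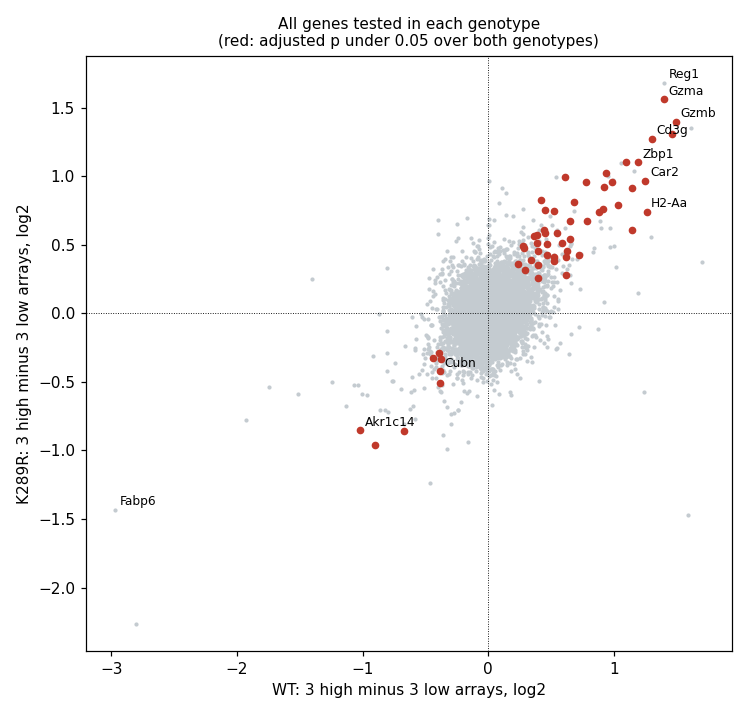
Difference between the 3 Cd3e-high and the 3 Cd3e-low arrays in WT (horizontal, log2) and in K289R (vertical, log2) for each of 18009 genes, with the 56 genes past the threshold over both genotypes in red. The red genes lie on the same side of 0 in both genotypes, a position that the joint fit favours.

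The middle arrays took no part in the comparison. On the scale from the low mean (0) to the high mean (1) of their genotype, Cd3e lay at 0.69 on both. On WT 4, 43 of the 56 genes lay nearer to the high mean and the median gene was at 0.72. On K289R 7, which carried Fabp6 signal, 20 of the 56 lay nearer to the high mean and the median gene was at 0.31, so its other genes were lower on this scale than its Cd3e. Of the 8 genes that fell, 6 lay nearer to the high mean on WT 4 and 5 on K289R 7.

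**Figure D5:**
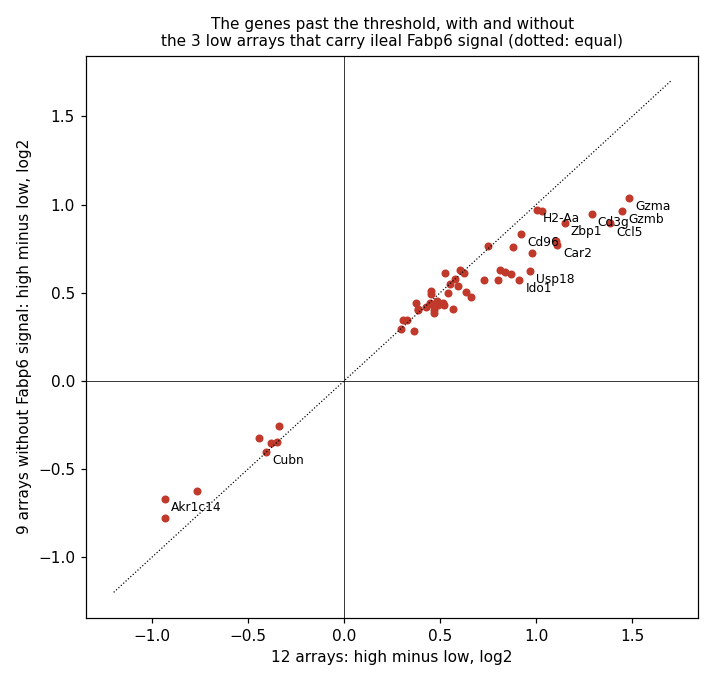
Difference (log2) of the 56 genes past the threshold over 12 arrays (horizontal) and over the 9 arrays without Fabp6 signal (vertical), with the dotted line where both are equal. All 56 points keep their sign, which the choice of these genes on arrays that include the 9 favours. The largest rises, such as Gzma (1.48 and 1.04), lie below the line.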

How the data were processed

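The arrays measure 41345 probe sets. The deposited values are intensities on a linear scale that the authors made with Affymetrix Expression Console, per the submitters' processing notes (version, normalization and background correction: not given in the sources used here). Array medians ran from 168 to 174, so no further normalization was applied and the values were log2-transformed. Residual background compresses differences of dim genes. Of the probe sets, 23521 had 1 gene symbol, 1814 several and 16010 none here. A gene was its brightest probe set. Genes under a mean log2 of 6.25 (intensity 75.9) and Cd3e were left out.

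Differences are Cd3e-high minus Cd3e-low arrays fitted in R 4.3.3 by limma 3.58.1 (eBayes, 2-sided, genotype as covariate), Benjamini-Hochberg adjusted over 18009 genes. Nothing says whether mice shared a litter or cage, so p-values measure the spread between these samples. The number of arrays limits the precision. The fit was tried on simulated data with fixed groups and genes that vary independently. This does not cover ranking arrays on a measured gene, genes that vary together or arrays with Fabp6 signal. The arrays, the 35 lists (492 tested memberships; other listed genes are not analysed here) and the tests were chosen with earlier results of these data known. Named were all T cell receptor genes, the 15 largest rises and falls past the threshold, up to 5 members of each other list by p, Nr5a2, Fabp6 and 5 genes most like Cd3e. The same-numbered WT and K289R arrays were not treated as pairs: their deviations correlated at -0.15 to 0.17, with 1 of 7 over 0.1. Such a check cannot exclude a shared litter or shared handling. Other listed genes are named with values where the text describes a list.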

Additional observations from a re-analysis of the deposited data

Results flagged for a closer look

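For each of 240 named genes the highest and lowest of the 6 arrays of a group were set against Dixon's limit, which chance passes in about 1 in 20 groups, and 25 of 480 groups passed it. The values are log2 intensities. Among the Cd3e-high arrays, WT 3 was apart for Cd6 (8.66), Anxa5 (10.24), Sparc (9.79) and Chat (7.09), WT 2 for the heat shock genes Hspa1b (12.68) and Hsph1 (10.38), and WT 5 for the interferon-induced GTPase Igtp (8.80). K289R 5 was apart for Mgp (10.14), Adipoq (8.48) and Il15 (10.37), K289R 6 for Ptprcap (8.32) and Nuggc (6.60), and K289R 3 for Olfr165 (5.58). Hspa1b was also high on the low arrays WT 1 (11.75), WT 6 (12.44) and WT 7 (10.99), against 9.41 on WT 3 and 8.88 on WT 5. The heat shock list mean was 10.07 to 10.48 on the WT low arrays and 10.61 on WT 2. It was 9.58 on WT 3, 9.51 on WT 5 and 9.37 to 9.55 on the K289R arrays. Of its 12 tested genes 0 were called in limma (0 with an unadjusted p under 0.05), with a median of -0.16 in WT and 0.08 in K289R.

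Among the Cd3e-low arrays, K289R 2 was apart for the T cell genes Trat1 (6.01) and Cd3d (6.85) and for the adipocyte hormone Lep (8.49). K289R 4 was apart for H2-DMb1 (8.12) and for the replication genes Mcm2 (9.37) and Mcm5 (9.92), and K289R 1 for Cyp11a1 (7.35). WT 1, which carried the highest Fabp6 signal, was apart for lactase, Lct (12.45), and Rnase1 (7.97), and WT 7 for Nos1 (7.77), Il15 (9.97) and Mzb1 (8.02).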

How the results depend on the processing

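Under each of 26 alternative fits, those of the 56 genes that were tested (51 with a filter at the median, otherwise 56) kept their direction, while the number past the threshold moved. The 56 were chosen on arrays that these fits share, which favours a kept direction. It was 0 without the genotype covariate, without the arrays with Fabp6 signal and with Fabp6 as covariate (an alternative chosen after seeing the data), with 1354, 859 and 915 unadjusted p under 0.05 in limma. It was 6 with a replicate block (5 of them among the 56), 117 with array weights, 131 with Cd3e as a continuous value over 14 arrays (40 of them among the 56), 2 at an adjusted p under 0.01 and 97 at an adjusted p under 0.1. Leaving out 1 array gave 2 (without WT 6) to 67 genes (without K289R 5), and 23 of the 56 passed in at least 6 of those 12 fits. Under the replicate block the MHC class I and interferon gamma median became 0.55 and the type I interferon median 0.50. Quantile normalization, a median shift, other filters on dim genes, the mean over probe sets, trend and robust options, and B cell or smooth muscle means as covariates gave 40 to 60 genes. The 6 arrays a group and the dim signal of genes near the lower limit bound what could be called.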

Other observations

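Some large differences did not pass the threshold. Plb1, a phospholipase of the brush border that was picked once its values were known, differed most of the genes named (-2.53, SE 0.74, adjusted p = 0.232 in limma), with log2 values of 7.09 to 11.63 on the Cd3e-high and 11.41 to 13.02 on the Cd3e-low arrays. It was 7.09 on WT 3, 7.19 on K289R 3 and 7.52 on the middle array WT 4, and at least 10.41 on every other array. Tmigd1, an epithelial adhesion protein picked in the same way, differed by -1.35 (SE 0.50, adjusted p = 0.438), and by -0.38 without the arrays with Fabp6 signal. Reg1, a secreted lectin of the regenerating family, was higher by 1.54 (SE 0.47, adjusted p = 0.269; 0.90 without those arrays), with 8.93 to 11.98 against 8.06 to 10.55. Onecut2, a transcription factor of the proximal intestine, was higher by 0.98 (SE 0.23, adjusted p = 0.112; 0.64 without those arrays). Pigr, which carries IgA across the epithelium, did not overlap between the groups (medians 13.11 and 12.81), with a difference of 0.31 (SE 0.07, adjusted p = 0.0940; 0.23 without those arrays).

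The clock gene Nr1d1, which encodes the repressor REV-ERB alpha, had log2 values of 9.53 to 10.48 on the high and 10.14 to 10.71 on the low arrays (difference -0.50, SE 0.13, adjusted p = 0.158). All mice were killed at 7 am per the labels, and Nr1d2 (-0.22), Dbp (-0.20), Per3 (-0.16) and Arntl (0.22) did not pass either. Of 13 tested clock genes 0 passed in limma, but 5 had an unadjusted p under 0.05, against 7.97% of all genes. All 13 tested immediate early genes were higher on the high arrays (median 0.20; 0.12 without the arrays with Fabp6 signal), 7 of them in both genotypes (median 0.30 in WT and 0.10 in K289R), and 0 passed in limma (1 with an unadjusted p under 0.05). The list mean was 10.31 on the high array WT 2, 9.40 to 9.74 on the other high arrays and 9.28 to 9.55 on the low ones.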
